A study of Homo sapiens with 6 samples.

Results

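The genes described here encode the machines that hold, fold and release chromosomes: the cohesin ring with its regulators, separase and securin, the condensins, and the anaphase-promoting complex (APC/C) with its coactivators, its inhibitor Emi1 and its ubiquitin-conjugating enzymes. They were chosen by name, as 43 listed genes of 53492 in the tables. All 43 were found, and all 43 passed the filter on low values, a mean of at least 1 FPKM (fragments scaled to transcript length and to the mapped fragments of the library) over the 6 libraries, which left 13231 genes to test. RNA sequencing of polyadenylated RNA was done in 6 libraries. All come from cells labelled SH-SY5Y, the name of a neuroblastoma line of human origin. In 3 libraries the cells carried pCS2-eGFP-N, a plasmid that makes green fluorescent protein (GFP), and in the other 3 they carried pCS2-eGFP-CCNB1IP1, which makes GFP joined to CCNB1IP1. These groups are called GFP and GFP-CCNB1IP1. The CCNB1IP1 protein, or HEI10, is a ubiquitin ligase of the RING type known to bind cyclin B. No time after transfection and no share of transfected cells is given. Nothing says that the replicates were grown apart, so a p-value here covers the spread of these 6 libraries, which may be technical.

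Cohesin is a ring of a pair of SMC proteins closed by a kleisin, RAD21, and bound by a STAG protein. It is loaded by NIPBL and MAU2, released by WAPL, and holds sister chromatids together from replication to anaphase. Condensin I and condensin II share the SMC2 and SMC4 proteins but have their own other subunits, and they compact chromosomes for mitosis. The APC/C is a ubiquitin ligase that, with its coactivator CDC20, marks securin and cyclin B for destruction, which frees separase to cut cohesin. With FZR1, also called CDH1, it stays active into the next G1 phase. Transcripts of many of these regulators are known to rise in dividing cells, whereas those of the core APC/C and cohesin subunits are made more evenly through the cell cycle.

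The tables carry mouse gene names and identifiers, although the labels name a human line. Rhox5, a homeobox gene of rodents, stood at 157 to 172 FPKM in the 6 libraries. All values below are those of mouse genes. Of 12 markers of sympathoadrenal neuroblastoma, 10 passed the filter, with Phox2a, a transcription factor of that lineage, at 107 ± 7.63 and 105 ± 5.11 FPKM in the GFP and GFP-CCNB1IP1 libraries (SD, n = 3). Dbh and Ddc, enzymes of catecholamine synthesis, were under the filter. The 12 markers summed to 1048 to 1144 FPKM with GFP and 891 to 975 with GFP-CCNB1IP1, without overlap, and Chga, Chgb and Ret were lower at an unadjusted p under 0.05. Of all genes tested, 5.77% were lower at that p. The mouse Ccnb1ip1 gene was at 0.0334, 0.125 and 0.0698 FPKM with GFP, and near 0, 0.133 and 0.191 FPKM with GFP-CCNB1IP1. It was below the filter and does not check the labels, since the introduced sequence was not analysed here. Relative depth, estimated from the deposited confidence intervals with the GFP mean at 1, ran from 0.742 in GFP-CCNB1IP1 replicate 2 to 1.06 in GFP replicate 2. The estimated fragments behind a value of a member ran from 25.7, for Anapc10, to 3887, for Nipbl. They are derived from those intervals and are not counts of reads. For some genes they varied between libraries by more than the relative depth did, as for Smc2, from 148 to 759.

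GFP-CCNB1IP1 replicate 2 stood apart in markers of macrophages. The summed level of 6 such markers was 0.252 to 0.808 FPKM in the GFP libraries and 15.8 in that library, where Lyz2, the lysozyme gene of myeloid cells, had 11.1 FPKM and Csf1r, the receptor of a macrophage growth factor, 2.05. In the other 2 GFP-CCNB1IP1 libraries Lyz2 had 0.197 and 0.0747 FPKM. Markers of fibroblasts summed to 6.06 to 7.63 FPKM with GFP and 6.39 to 7.72 with GFP-CCNB1IP1, and Col3a1 and Lum among them were at 0 in every library. Markers of Schwann cells summed to 0.674 to 0.901 FPKM with GFP and 1.20 to 1.53 with GFP-CCNB1IP1, and those of endothelium to 1.95 to 2.40 FPKM with GFP and 2.41 to 2.67 with GFP-CCNB1IP1. The part of these shifts in the results below was not tested, and the main counts are given also without GFP-CCNB1IP1 replicate 2.

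Condensin genes had lower levels in the GFP-CCNB1IP1 libraries, and so did separase and several regulators of cohesion and of the APC/C, whereas most APC/C subunits and the cohesin loaders had small differences. No member passed the test at an adjusted p under 0.05 (limma), so all of these are differences in level that missed the threshold. In the same comparison 0.00756% of all genes tested were called, which is a single gene. At an unadjusted p under 0.05, 18 of the 43 members were lower, or 41.9%, against 5.77% of all genes tested, and 0 were higher, against 5.59%. The groups did not overlap for 17 members, or 39.5%, all of them lower in the GFP-CCNB1IP1 libraries, against 8.9% of all genes in that direction and 8.7% in the other. The median difference over the 43 members was -0.067 on the log2(FPKM + 1) scale, with 0.0037 over all genes tested, and 28 members had a negative difference, or 65.1%, against 48.6% of all genes. Fzr1 and Anapc11, close to 0, were negative too when the values were rescaled to TPM. In bulk RNA, fewer dividing cells and less of a transcript per cell cannot be told apart. Without GFP-CCNB1IP1 replicate 2 there were 16 members lower at an unadjusted p under 0.05 and 19 without overlap. With fewer libraries a lack of overlap is easier to reach, and the shares above are those of all 6 libraries.

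The GFP libraries also differed among themselves in these genes. In GFP replicate 2, 32 of the 43 members were below the mean of the other GFP libraries, with 13 in GFP replicate 1 and 19 in GFP replicate 3. Against the mean of all 3 GFP libraries, 29, 30 and 32 members were lower in GFP-CCNB1IP1 replicates 1, 2 and 3. The number of lower members in GFP replicate 2 was thus as large as in the GFP-CCNB1IP1 libraries, although the sizes differed. For each member the level in GFP replicate 2 was divided by that gene's mean in the other GFP libraries, and the median of these ratios was 0.955. For GFP-CCNB1IP1 replicates 1, 2 and 3 the median ratio to the gene's GFP mean was 0.938, 0.943 and 0.920.

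**Figure D1:**
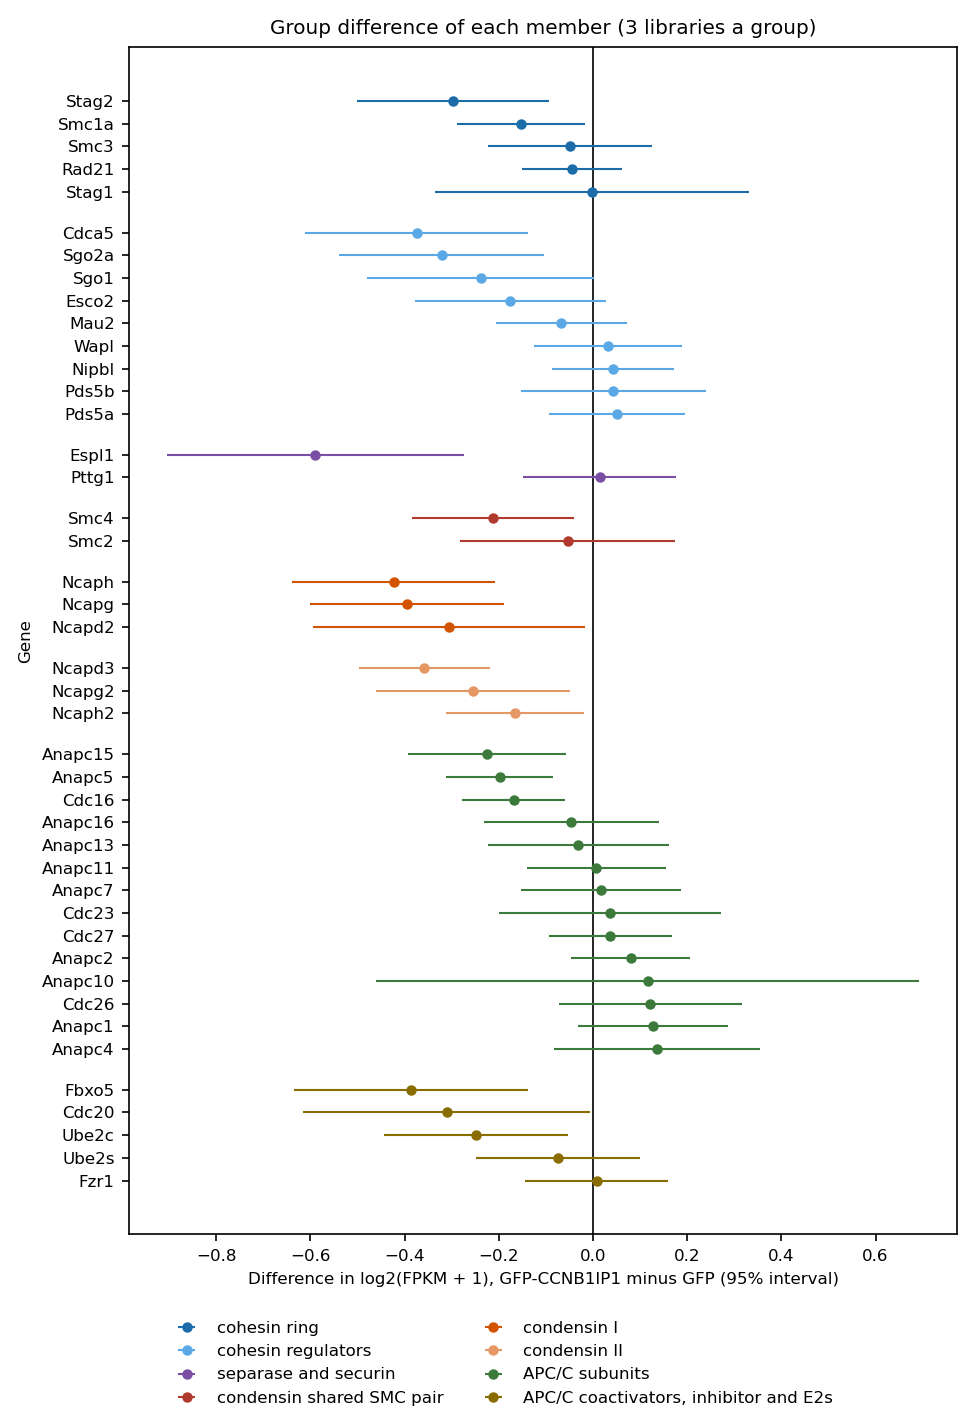
Difference between the groups in log2(FPKM + 1), GFP-CCNB1IP1 minus GFP, for each of the 43 members, as points with 95% intervals from limma (3 libraries a group), coloured by list and ordered by size within it. Intervals of 18 members lie wholly below 0, among them 7 of the 8 condensin genes, and none lies wholly above 0.

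In the cohesin ring the difference was small for most subunits. Smc1a (ENSMUSG00000041133.12, chromosome X, 150799424 to 150845690, on a genome build that the sources used here do not name), an ATPase arm of the ring, had 57.2, 50.1 and 53.5 FPKM with GFP and 49.1, 48.0 and 47.0 FPKM with GFP-CCNB1IP1. The groups did not overlap, and the difference was -0.15 (SE 0.059, adjusted p = 0.394). Its partner Smc3 had 19.4, 16.1 and 17.6 FPKM with GFP and 17.2, 17.5 and 16.5 FPKM with GFP-CCNB1IP1, which overlapped, with a difference of -0.049 (95% interval -0.22 to 0.13, adjusted p = 0.846). Rad21, the kleisin that closes the ring and that separase cuts, was the most abundant ring gene per length at 63.0 ± 2.22 and 61.0 ± 0.608 FPKM in the GFP and GFP-CCNB1IP1 libraries (SD, n = 3). Its difference was -0.044 (95% interval -0.15 to 0.063, adjusted p = 0.758).

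The STAG genes, which encode alternative subunits of the ring, were read side by side, and the contrast between their differences was not tested. Stag2 (chromosome X, 41238194 to 41366062) had 7.94, 6.74 and 7.70 FPKM with GFP and 5.47, 6.28 and 5.89 FPKM with GFP-CCNB1IP1. Every GFP-CCNB1IP1 library was below every GFP library, with a difference of -0.30 (SE 0.088, adjusted p = 0.298). Stag1 had 6.06, 3.81 and 5.47 FPKM with GFP and 5.23, 5.22 and 4.65 FPKM with GFP-CCNB1IP1, with the groups overlapping widely and a difference of -0.0018 (95% interval -0.34 to 0.33, adjusted p = 1.000). The ratio of Stag2 to Stag1 in FPKM was 1.31, 1.77 and 1.41 with GFP and 1.05, 1.20 and 1.27 with GFP-CCNB1IP1, so the ratios did not overlap, though with 3 libraries against 3 an exact permutation test cannot give a p below 0.1 and none was run. The spread of Stag1 was largest among the GFP libraries, where replicate 2 was lowest. The median difference of the 5 ring genes was -0.049, and -0.17 without GFP replicate 2.

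Of the 9 regulators of cohesin, 4 were lower without overlap of the groups, namely Cdca5, Sgo2a, Sgo1 and Esco2, and 2 of these, Cdca5 and Sgo2a, had an unadjusted p under 0.05. Over all genes tested the shares were 8.9% and 5.77%. The groups overlapped for the other 5. Cdca5, which encodes sororin, the factor that guards cohesin on replicated chromatids from WAPL, had 10.2, 9.44 and 8.55 FPKM with GFP and 8.09, 6.54 and 6.46 FPKM with GFP-CCNB1IP1. The groups did not overlap, and the difference was -0.37 (SE 0.103, adjusted p = 0.278), a mean lower by 25.1%. Sgo2a, a shugoshin that shields centromeric cohesin, had 4.82, 4.02 and 4.40 FPKM with GFP and 3.34, 3.13 and 3.51 FPKM with GFP-CCNB1IP1, also without overlap, with a difference of -0.32 (SE 0.094, adjusted p = 0.294). Its near copy Sgo2b was listed at 0 in every library. Sgo1, the mitotic shugoshin, had 3.01, 3.21 and 3.74 FPKM with GFP and 2.46, 2.70 and 2.81 FPKM with GFP-CCNB1IP1, and Esco2, which acetylates SMC3 during replication, had 4.54, 4.33 and 4.19 FPKM with GFP and 3.49, 3.68 and 4.06 FPKM with GFP-CCNB1IP1. The groups overlapped for neither gene, but both missed an unadjusted p of 0.05, with differences of -0.24 (SE 0.104, adjusted p = 0.448) and -0.18 (SE 0.088, adjusted p = 0.499).

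The loading subunit Nipbl had 17.3, 17.4 and 17.8 FPKM with GFP and 17.6, 18.8 and 17.7 FPKM with GFP-CCNB1IP1, a difference of 0.042 (95% interval -0.087 to 0.17, adjusted p = 0.816). Its partner Mau2 had 20.1, 20.2 and 22.2 FPKM with GFP and 19.6, 19.6 and 20.2 FPKM with GFP-CCNB1IP1, a difference of -0.067 (95% interval -0.21 to 0.072, adjusted p = 0.713). The releasing factor Wapl had 14.8, 14.04 and 13.8 FPKM with GFP and 13.6, 15.3 and 14.8 FPKM with GFP-CCNB1IP1, a difference of 0.033 (95% interval -0.12 to 0.19, adjusted p = 0.892). The PDS5 proteins bind the ring with WAPL or sororin, and their genes had small differences too. Pds5a had 41.4, 38.5 and 44.0 FPKM with GFP and 41.0, 43.1 and 44.2 FPKM with GFP-CCNB1IP1, and its difference of 0.051 (95% interval -0.093 to 0.19, adjusted p = 0.80) was the most positive of the regulators. For its paralog Pds5b the difference was 0.043 (95% interval -0.15 to 0.24, adjusted p = 0.886). These 5 genes overlapped between the groups, and their intervals reach no further than -0.21 and 0.24. Pds5a was 4.04 ± 0.157 times Pds5b in FPKM in the GFP libraries and 4.05 ± 0.0545 times in the GFP-CCNB1IP1 libraries (SD, n = 3). The ratio of Nipbl to Wapl likewise overlapped, as did that of Sgo1 to Sgo2a. The former was 1.23 ± 0.0635 and 1.24 ± 0.0499. The median difference over the 9 regulators was -0.067, and 0.038 when Sgo1, Sgo2a and Esco2 were left out by a mean FPKM of at least 5; without GFP replicate 3 it was -0.023.

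Separase and securin, which start anaphase as enzyme and inhibitor, were read side by side, and the contrast between their differences was not tested. Espl1 (ENSMUSG00000058290.5, chromosome 15, 102204701 to 102232792), the separase gene, had 17.4, 15.5 and 23.7 FPKM with GFP and 12.5, 11.7 and 11.8 FPKM with GFP-CCNB1IP1. The groups did not overlap, and this was the largest difference of the 43 members, at -0.59 (SE 0.136, adjusted p = 0.235), a mean lower by 36.3%. GFP replicate 3 was the high library, and without it the difference was -0.42. Pttg1, the securin gene, had 16.1, 15.7 and 16.9 FPKM with GFP and 17.1, 17.1 and 15.03 FPKM with GFP-CCNB1IP1, with a difference of 0.014 (95% interval -0.15 to 0.18, adjusted p = 0.965). The FPKM ratio of Espl1 to Pttg1 was 1.08, 0.988 and 1.40 with GFP and 0.730, 0.683 and 0.787 with GFP-CCNB1IP1, without overlap.

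**Figure D2:**
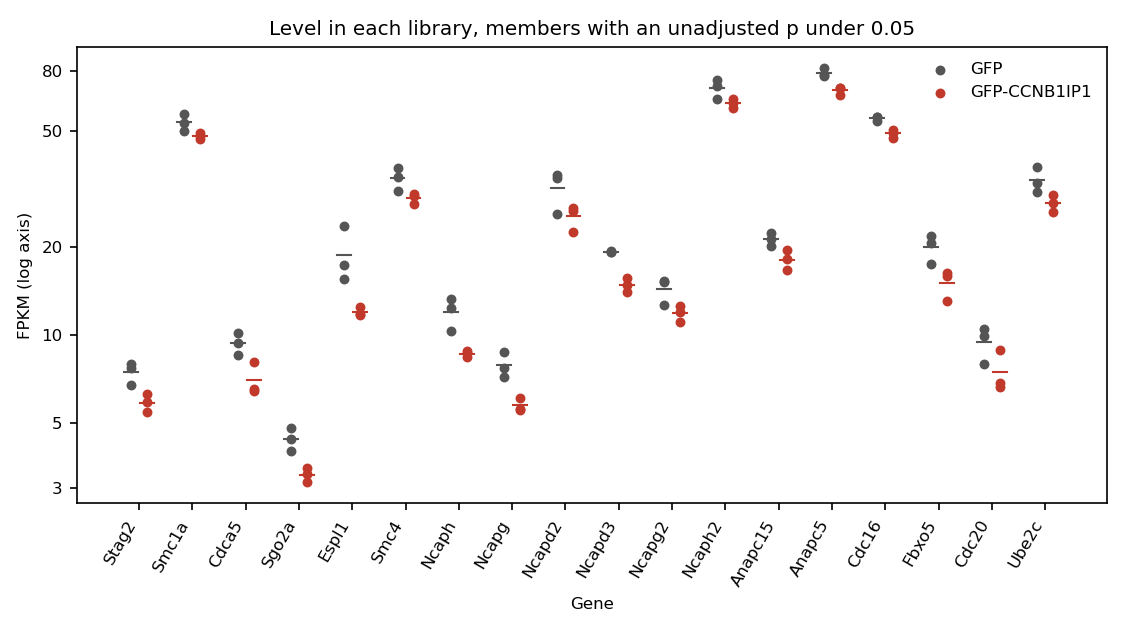
FPKM on a log axis in each library for the 18 members with an unadjusted p under 0.05, with points for libraries (grey GFP, red GFP-CCNB1IP1) and short lines for the mean of 3. The 3 red points lie below the 3 grey points for all but Ncapd2, Ncaph2 and Cdc20, and the members shown were picked by this same difference.

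Condensin was the complex with the most members lower: all 8 genes had negative differences, 7 had an unadjusted p under 0.05, and 5 did not overlap between the groups. The shares of all genes tested were 48.6% negative, 5.77% lower at that p and 8.9% lower without overlap. In GFP replicate 2 alone, 7 of the 8 were below the mean of the other GFP libraries, and in GFP-CCNB1IP1 replicates 1, 2 and 3 there were 8, 7 and 8 below the GFP mean. The median difference was -0.28, and -0.31 without GFP-CCNB1IP1 replicate 2. The gene with the smallest p of all members was Ncapd3 (ENSMUSG00000035024.17, chromosome 9, 26941471 to 27006611), which encodes a HEAT-repeat subunit of condensin II. It had 19.4, 19.3 and 19.3 FPKM with GFP and 14.1, 15.7 and 14.9 FPKM with GFP-CCNB1IP1. The GFP libraries had an SD of 0.0308 FPKM (n = 3) and the groups did not overlap. In limma the difference was -0.36 (SE 0.060, adjusted p = 0.176), a mean lower by 23.0%. The other condensin II genes were lower by less. Ncapg2, the second HEAT-repeat subunit, had 12.7, 15.4 and 15.2 FPKM with GFP and 11.1, 12.0 and 12.5 FPKM with GFP-CCNB1IP1, with a difference of -0.25 (SE 0.089, adjusted p = 0.354). Ncaph2, the kleisin, had 74.6, 64.5 and 71.6 FPKM with GFP and 62.4, 60.2 and 64.6 FPKM with GFP-CCNB1IP1, where GFP replicate 2 and GFP-CCNB1IP1 replicate 3 overlapped narrowly, and a difference of -0.17 (SE 0.063, adjusted p = 0.394).

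All 3 genes specific to condensin I were lower. Ncaph (ENSMUSG00000034906.16, chromosome 2, 126945729 to 126975874), its kleisin, had 13.3, 10.3 and 12.4 FPKM with GFP and 8.40, 8.85 and 8.70 FPKM with GFP-CCNB1IP1, without overlap, and a difference of -0.42 (SE 0.093, adjusted p = 0.222). Ncapg, a HEAT-repeat subunit, had 8.77, 7.19 and 7.72 FPKM with GFP and 5.59, 5.56 and 6.10 FPKM with GFP-CCNB1IP1, also without overlap, and a difference of -0.39 (SE 0.089, adjusted p = 0.230). Ncapd2, the other HEAT-repeat subunit, had 35.3, 25.9 and 34.6 FPKM with GFP and 22.6, 27.3 and 26.6 FPKM with GFP-CCNB1IP1. Here GFP replicate 2 lay among the GFP-CCNB1IP1 libraries, and the difference was -0.31 (SE 0.125, adjusted p = 0.419). The means of Ncaph, Ncapg and Ncapd2 were lower by 27.9%, 27.1% and 20.1%, and those of Ncapd3, Ncapg2 and Ncaph2 in condensin II by 23.0%, 17.5% and 11.1%.

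Of the SMC genes that both condensins share, Smc4 was lower and Smc2 overlapped between the groups. Smc4 had 34.8, 31.1 and 37.5 FPKM with GFP and 28.2, 30.4 and 30.0 FPKM with GFP-CCNB1IP1, without overlap, and a difference of -0.21 (SE 0.074, adjusted p = 0.354). Smc2 had 10.1, 9.17 and 8.82 FPKM with GFP and 7.999, 10.3 and 8.73 FPKM with GFP-CCNB1IP1, and GFP-CCNB1IP1 replicate 2 was its highest library. Its difference was -0.053 (95% interval -0.28 to 0.18, adjusted p = 0.876). Per length, Smc4 was above Smc2 in every library, and Ncaph2 was far above its condensin I counterpart Ncaph. The FPKM ratio of Ncaph to Ncaph2 was 0.178, 0.160 and 0.173 with GFP and 0.135, 0.147 and 0.135 with GFP-CCNB1IP1, without overlap. The ratios of Ncapd2 to Ncapd3 and of Ncapg to Ncapg2 overlapped between the groups, at 1.65 ± 0.269 and 1.71 ± 0.0962 for the former and 0.556 ± 0.121 and 0.484 ± 0.0192 for the latter (SD, n = 3).

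The 14 subunits of the APC/C itself had a median difference of 0.027, with 9 positive and 5 negative (Anapc11, among the 9, was at -0.0040 in TPM). It was -0.010 without GFP-CCNB1IP1 replicate 1. Of these, 3 were lower at an unadjusted p under 0.05 without overlap of the groups, or 21.4%, and 0 were higher, where 5.77% of all genes tested were lower at that p and 8.9% were lower without overlap. Anapc5, a scaffold subunit and the most abundant of the 14 per length, had 82.4, 77.2 and 77.8 FPKM with GFP and 70.0, 66.3 and 70.4 FPKM with GFP-CCNB1IP1. Its groups stood apart, with a difference of -0.20 (SE 0.049, adjusted p = 0.270). Cdc16, a TPR subunit, had 55.8, 54.2 and 55.9 FPKM with GFP and 47.4, 50.5 and 49.4 FPKM with GFP-CCNB1IP1, with a difference of -0.17 (SE 0.047, adjusted p = 0.283). Anapc15, a small subunit that helps turn over the checkpoint inhibitor bound to the APC/C, had 20.3, 22.4 and 21.4 FPKM with GFP and 18.2, 16.8 and 19.5 FPKM with GFP-CCNB1IP1, with a difference of -0.22 (SE 0.072, adjusted p = 0.323), the most negative of the subunits.

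Other subunits overlapped between the groups. Anapc4, a scaffold subunit, had the most positive difference, with 21.5, 19.6 and 17.8 FPKM with GFP and 19.3, 21.9 and 23.8 FPKM with GFP-CCNB1IP1 and a difference of 0.14 (95% interval -0.083 to 0.35, adjusted p = 0.634). Anapc1, the largest scaffold protein, had 19.9, 20.7 and 18.6 FPKM with GFP and 23.0, 20.3 and 21.5 FPKM with GFP-CCNB1IP1, with GFP-CCNB1IP1 replicate 2 inside the GFP range and a difference of 0.13 (95% interval -0.032 to 0.29, adjusted p = 0.531). For Anapc2 and Anapc11, the cullin and RING pair that carries the ligase activity, the differences were 0.080 (95% interval -0.046 to 0.21, adjusted p = 0.626) and 0.0071 (95% interval -0.14 to 0.16, adjusted p = 0.981). Anapc2 had 40.9, 45.7 and 44.0 FPKM with GFP and 45.7, 46.8 and 45.6 FPKM with GFP-CCNB1IP1. The TPR subunits Cdc27, Cdc23 and Anapc7, which share with Cdc16 the arm that holds the coactivator, had differences of 0.037, 0.036 and 0.017. For the small subunits Anapc13, Anapc16 and Cdc26 the differences were -0.031, -0.046 and 0.12. Anapc10, which helps bind substrates, was the lowest subunit, with 3.88, 3.15 and 2.10 FPKM with GFP and 3.35, 4.90 and 2.11 FPKM with GFP-CCNB1IP1. Its difference was 0.12, and its interval of -0.46 to 0.69 was the widest of the 43, so a difference of the size of the condensin median was not detectable there.

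The APC/C has a pair of coactivators, and the contrast between their differences was not tested. Cdc20, which activates it in mitosis, had 10.5, 7.99 and 9.92 FPKM with GFP and 6.86, 8.92 and 6.63 FPKM with GFP-CCNB1IP1. Its groups overlapped through GFP-CCNB1IP1 replicate 2, and the difference was -0.31 (SE 0.132, adjusted p = 0.431); without that library it was -0.43 (adjusted p = 0.379). Fzr1, which activates it from late mitosis through G1, had 18.6, 16.2 and 17.3 FPKM with GFP and 17.8, 17.0 and 17.4 FPKM with GFP-CCNB1IP1, a difference of 0.0076 (95% interval -0.14 to 0.16, adjusted p = 0.980). The FPKM ratio of Cdc20 to Fzr1 was 0.568, 0.494 and 0.575 with GFP and 0.385, 0.524 and 0.381 with GFP-CCNB1IP1, which overlapped.

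Fbxo5, the gene of the inhibitor Emi1 that holds the APC/C off in S and G2 phase, had 17.5, 21.8 and 20.7 FPKM with GFP and 13.1, 16.3 and 15.9 FPKM with GFP-CCNB1IP1. The groups did not overlap, with a difference of -0.39 (SE 0.107, adjusted p = 0.283). Ube2c, the enzyme that starts ubiquitin chains on APC/C substrates, had 37.8, 30.8 and 33.2 FPKM with GFP and 26.4, 28.4 and 30.1 FPKM with GFP-CCNB1IP1, without overlap, and a difference of -0.25 (SE 0.084, adjusted p = 0.344). Ube2s, which extends those chains, was the most abundant member per length, with 104, 99.2 and 92.4 FPKM with GFP and 98.7, 84.0 and 98.2 FPKM with GFP-CCNB1IP1. Its groups overlapped, and the difference was -0.074 (95% interval -0.25 to 0.10, adjusted p = 0.751). The median difference of the coactivators, inhibitor and enzymes, 5 genes in all, was -0.25. The ratio of Ube2c to Ube2s was 0.364, 0.311 and 0.360 with GFP and 0.268, 0.339 and 0.307 with GFP-CCNB1IP1, with the groups overlapping.

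Some members lie across a neighbour by their whole gene spans, and exons were not compared. Spans of 13 of the 43 members overlap another gene with a mean of at least 1 FPKM, 6 of them among the 18 lower at an unadjusted p under 0.05. Ube2s overlaps the ribosomal protein gene Rpl28, at 542 FPKM, and Cdc20 overlaps Elovl1, a fatty acid elongase gene, at 30.1 FPKM. Sgo2a overlaps Kctd18, Ncapg overlaps Lcorl, Anapc15 overlaps Folr1, Ncaph2 overlaps Sco2 and Tymp, and Smc1a overlaps Gm15267. Since no source states that strand was kept, reads of such neighbours cannot be told apart where their transcripts overlap, if they do.

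**Figure D3:**
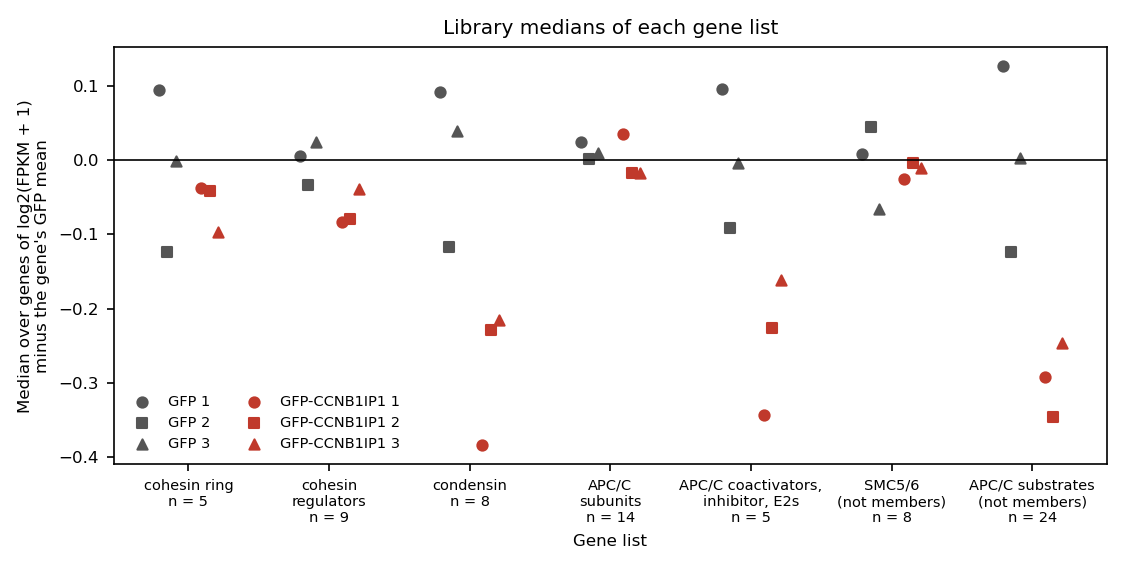
Median over the genes of each list of log2(FPKM + 1) minus the gene's GFP mean, 1 point per library (grey GFP, red GFP-CCNB1IP1, with a marker shape per replicate number, which names the library only). For condensin, the cohesin regulators, the APC/C coactivators, inhibitor and E2s, and the APC/C substrates the red points lie below the grey ones, whereas those of the cohesin ring, the APC/C subunits and SMC5/6 overlap.

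By library, the median of the 8 condensin genes relative to their GFP means was 0.092, -0.12 and 0.039 with GFP and -0.38, -0.23 and -0.22 with GFP-CCNB1IP1. GFP replicate 2 was the lowest GFP library, and it was still above every GFP-CCNB1IP1 library. The median of the 14 APC/C subunits was 0.025, 0.0015 and 0.0095 with GFP and 0.035, -0.017 and -0.018 with GFP-CCNB1IP1, which overlapped. That of the 5 ring genes was 0.095, -0.12 and -0.00095 with GFP and -0.037, -0.041 and -0.10 with GFP-CCNB1IP1, also overlapping, since GFP replicate 2 was the lowest of the 6. The median of the 9 cohesin regulators was 0.0058, -0.033 and 0.024 with GFP and -0.084, -0.079 and -0.039 with GFP-CCNB1IP1, without overlap but by a small gap between GFP replicate 2 and GFP-CCNB1IP1 replicate 3. The difference between the complexes was not tested.

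The 18 members lower at an unadjusted p under 0.05 covered a wide range of levels and many chromosomes. Their median FPKM was 17.3, against 17.7 for the other 25, and they lay on 14 chromosomes of the 18 that hold members. Their adjusted p-values ran from 0.176 to 0.431 and their differences from -0.59 to -0.15. The latter compare with a range of -0.25 to 0.25 that holds the middle 90% of all genes tested. The members just outside an unadjusted p of 0.05 were Sgo1, at -0.24, and Esco2, at -0.18, and those just inside were Cdc20, at -0.31, and Ncapd2, at -0.31.

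**Figure D4:**
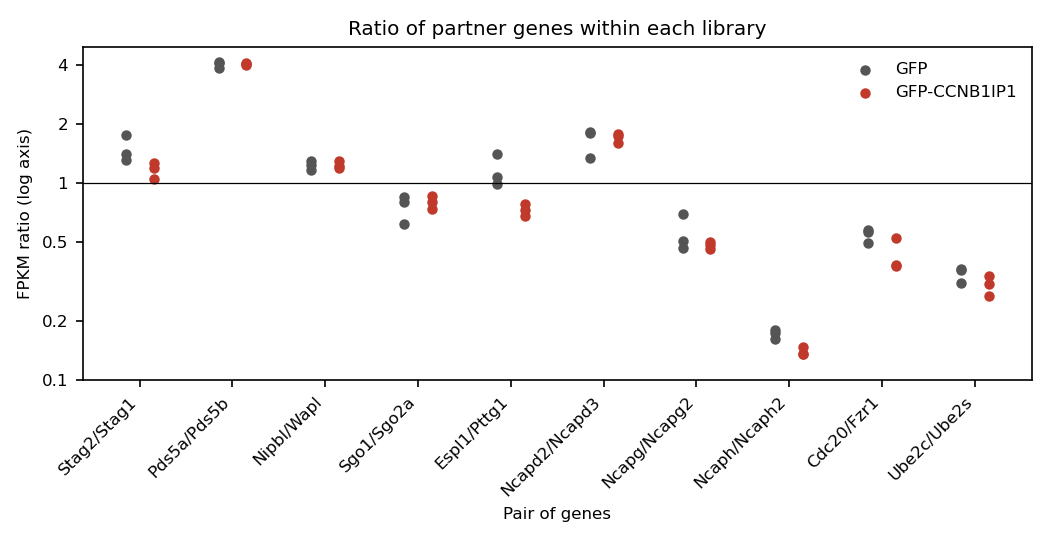
FPKM ratio on a log axis of 10 pairs of partner genes within each library (grey GFP, red GFP-CCNB1IP1), with a line at a ratio of 1. The ratios of Stag2 to Stag1, Espl1 to Pttg1 and Ncaph to Ncaph2 did not overlap between the groups and were lower in the GFP-CCNB1IP1 libraries, and the other 7 overlapped. Stag2, Espl1 and Ncaph were also lower without overlap on their own, and no share over other pairs of genes was computed.

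Other genes of these pathways were read from the same test, and 0 of them passed at an adjusted p under 0.05. Of 24 genes outside the members whose proteins the APC/C marks for destruction, all 24 passed the filter and had negative differences. Their median was -0.31, and 17 were lower at an unadjusted p under 0.05, against 5.77% of all genes tested. Securin, which the APC/C also marks, is not among the 24. Its gene Pttg1 is a member and had a difference of 0.014. Kif22, a chromosome-arm kinesin, had 19.5, 18.6 and 19.5 FPKM with GFP and 14.5, 14.5 and 16.01 FPKM with GFP-CCNB1IP1, a difference of -0.34 (SE 0.063, adjusted p = 0.176). For Tk1, a thymidine kinase, the difference was -0.46 (SE 0.062, adjusted p = 0.176), and for Ccna2, cyclin A2, it was -0.38 (SE 0.081, adjusted p = 0.212). In all, 14 of the 24 did not overlap between the groups, against 8.9% of all genes tested in that direction.

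Of 10 genes that establish or bound cohesion, all 10 passed the filter, 3 were lower at an unadjusted p under 0.05 and 0 were higher, with a median of -0.14. Of all genes tested, 5.77% were lower and 5.59% higher at that p. Chtf18, of the clamp loader that aids cohesion at the replication fork, had 5.99, 5.02 and 5.30 FPKM with GFP and 3.49, 3.72 and 3.51 FPKM with GFP-CCNB1IP1, a difference of -0.49 (SE 0.090, adjusted p = 0.176). Wdhd1 and Timeless, which work at the fork, had differences of -0.35 (SE 0.090, adjusted p = 0.272) and -0.35 (SE 0.107, adjusted p = 0.317). Ctcf, which stops cohesin at boundaries of chromatin loops, was at 19.3 ± 3.23 and 17.4 ± 1.11 FPKM (SD, n = 3), and its groups overlapped.

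The SMC5/6 complex, the third of the SMC complexes and best known for DNA repair, had 8 of 9 genes past the filter, with a median difference of 0.0038. A single one, Nsmce4a, was lower at an unadjusted p under 0.05, at -0.16 (SE 0.063, adjusted p = 0.417), while Nsmce3 and Slf2 had 0.10 and -0.060. Of all genes tested, 5.77% were lower at that p. Of 4 cohesin genes known for meiosis, Smc1b, Stag3 and Rad21l were under the filter. Rec8, the meiotic kleisin, was not, with 29.9, 28.6 and 31.8 FPKM with GFP and 26.1, 26.6 and 27.5 FPKM with GFP-CCNB1IP1, without overlap, and a difference of -0.16 (SE 0.058, adjusted p = 0.354). Per length it stood below Rad21 in every library.

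Among 9 other regulators of the APC/C, 8 passed the filter, with a median of -0.19, 2 lower at an unadjusted p under 0.05 and 0 higher. The shares of all genes tested at that p were 5.77% lower and 5.59% higher. Bub1b, the BubR1 checkpoint protein that inhibits CDC20, had 14.8, 11.9 and 13.7 FPKM with GFP and 10.01, 11.1 and 10.5 FPKM with GFP-CCNB1IP1, a difference of -0.32 (SE 0.088, adjusted p = 0.282). Mad2l1bp, which takes the checkpoint protein MAD2 apart from its partners, had a difference of -0.23 (SE 0.075, adjusted p = 0.323), and Mad2l1 itself -0.20 (SE 0.096, adjusted p = 0.478). Among 6 genes of mitotic chromosome structure, Mki67 and Kif4 were lower at an unadjusted p under 0.05, at -0.44 (SE 0.061, adjusted p = 0.176) and -0.36 (SE 0.103, adjusted p = 0.287). Only Top2b was higher at that p, and the shares of all genes tested are those just given. Top2b, a topoisomerase of non-dividing as well as dividing cells, was higher, without overlap, with 11.1, 10.3 and 11.7 FPKM with GFP and 12.7, 15.5 and 14.7 FPKM with GFP-CCNB1IP1, a difference of 0.34 (SE 0.088, adjusted p = 0.272). Top2a, its counterpart in dividing cells, had 71.5, 45.9 and 71.5 FPKM with GFP and 44.8, 49.8 and 56.5 FPKM with GFP-CCNB1IP1, with the groups overlapping.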

How the data were processed

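Polyadenylated RNA of 6 libraries was selected with oligo-dT and copied from random primers, per the labels' protocols. No source states whether strand was kept. The submitters' processing notes name HISAT2 and Cufflinks without versions. The authors deposited FPKM per gene, with the bounds of a confidence interval, in 1 table per library. The build and annotation: not given in the sources used here. Rows of 1 identifier were summed (53537 rows, 53492 genes), starts (0-based in the tables) are printed 1-based, and FPKM were used with no further scaling. Genes with a mean of at least 1 FPKM were tested on log2(FPKM + 1) with limma 3.58.1 in R 4.3.3 (mean-variance trend, no block), with Benjamini-Hochberg adjustment over all 13231 genes and calls at an adjusted p under 0.05. Differences are GFP-CCNB1IP1 minus GFP on that scale, where low genes appear less altered than on a ratio scale. An estimated fragment number is FPKM over its standard error, squared, with the deposited upper bound taken as 2 standard errors away. Depth itself is unknown and no count test was run. The members and lists were chosen with earlier results of these data known, so no p over a list is given. All members are accounted for; values in every library are given for those with an unadjusted p under 0.05 and others by a rule on level, p and direction. Top2a, Ctcf and Phox2a were named after seeing their values. The fitting was checked on simulated data. No sequence is printed for these mouse genes, and 1 marker gene is not reported here. Alternatives were other pseudocounts, filters and scalings, a replicate block, limma without the trend, and each library left out.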

Additional observations from a re-analysis of the deposited data

How the results depend on the processing

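No member passed at an adjusted p under 0.05 in any of the 14 alternatives, where the smallest adjusted p was 0.153, for Ncapd3. The 18 members lower at an unadjusted p under 0.05 had negative differences in every alternative in which they were tested, and 11 of them stayed under 0.05 in each. These 18 were picked by this same difference, so their keeping its sign is no separate support. For all but Ncapd2, Ncaph2 and Cdc20 the groups did not overlap. There, leaving out a library or changing the pseudocount could not turn the sign. The number of members lower at that p ran from 12, without GFP replicate 3 or GFP-CCNB1IP1 replicate 1, to 18, and was 16 with the replicate block. The labels give no meaning to the shared numbers, and same-numbered libraries did not deviate together (r = 0.0226, -0.0093 and -0.0107 across genes, which are not independent replicates), nor did every library correlate best with its own number. The number of members without overlap ran from 14, with a mean FPKM of at least 5 that tests fewer genes, to 24, without GFP replicate 2. With 1 library left out a lack of overlap is easier to reach, so these numbers are not like for like with the main one. The share of all genes tested, lower at that p or without overlap, is given for the main analysis only. The counts of members in the alternatives therefore have no share to be set against. Of all genes tested, 1 was called in the main analysis and 0 with a pseudocount of 5, with no filter, with the replicate block and in limma without the trend, and between 0 and 4 with 1 library left out. The condensin median ran from -0.32 to -0.22 with 1 library left out, that of the cohesin ring from -0.17 to -0.018, that of the cohesin regulators from -0.092 to -0.023, that of the APC/C subunits from -0.010 to 0.039, and that of all members from -0.12 to -0.082. With a mean FPKM of at least 5 the cohesin regulators had a median of 0.038, since 3 lower members left the test. The sign of the difference changed in some alternative for 14 members, none of which was among the 18. With 1 library left out, Stag1 ran from -0.17 to 0.11 (sign changed without GFP replicate 1, GFP replicate 3, GFP-CCNB1IP1 replicate 3), Smc3 ran from -0.11 to 0.015 (sign changed without GFP replicate 1), Smc2 ran from -0.14 to 0.020 (sign changed without GFP-CCNB1IP1 replicate 1), Pds5b ran from -0.021 to 0.11 (sign changed without GFP replicate 2), Wapl ran from -0.0030 to 0.080 (sign changed without GFP-CCNB1IP1 replicate 2). Pttg1 ran from -0.016 to 0.073 (sign changed without GFP replicate 2, GFP-CCNB1IP1 replicate 1, GFP-CCNB1IP1 replicate 2), Anapc7 from -0.043 to 0.060 (sign changed without GFP replicate 3, GFP-CCNB1IP1 replicate 1), Anapc10 from -0.11 to 0.35 (sign changed without GFP replicate 3, GFP-CCNB1IP1 replicate 2), Anapc11 from -0.042 to 0.048 (sign changed without GFP replicate 2, GFP-CCNB1IP1 replicate 1), Anapc13 from -0.10 to 0.055 (sign changed without GFP replicate 3). Anapc16 ran from -0.12 to 0.012 (sign changed without GFP replicate 3), Cdc23 from -0.051 to 0.12 (sign changed without GFP replicate 1, GFP-CCNB1IP1 replicate 1), Fzr1 from -0.038 to 0.056 (sign changed without GFP replicate 2, GFP-CCNB1IP1 replicate 1), Ube2s from -0.12 to 0.0013 (sign changed without GFP-CCNB1IP1 replicate 2). Stag1 was at 0.0018 with a pseudocount of 0.1, and Anapc11 and Fzr1 were at -0.0040 and -0.0034 in TPM. The cause of these changes was not tested. Anapc10 had the fewest estimated fragments of the members, and the part of depth in its wide spread was not tested.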

Other observations

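Rec8, a kleisin known from meiosis, was detected in every library of these cultured cells, at 28.4 FPKM on average, whereas Stag3, which joins it in meiotic cohesin, reached no more than 0.233 FPKM and Smc1b no more than 0.0228. The estimated fragments behind Rec8 were at least 419.6 in each library. Genes overlapping the span of Rec8 were not looked for, and no source states that strand was kept.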
